A study of Mus musculus with 22 samples.

Results

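Retinal bipolar cells were compared with photoreceptors for how far each gene's level changed between postnatal day 7 (P7) and postnatal day 30 (P30). The quantity is an interaction: the log2 change from P7 to P30 in bipolars minus the mean of the same changes in rods and cones, so that a positive value means that a gene rose more, or fell less, in bipolars. It used 12 of the 22 libraries of the series, 2 in each of 6 groups: bipolars, rods and cones at P7, and the same 3 cell types at P30. All are mouse retinal cells collected after sorting, and the series describes the bipolars as ON-bipolar cells, which depolarise when light comes on. The labels name age, tissue and cell type alone, and give no strain, sex, number of animals, sorting marker or batch. Nothing in the labels says whether both libraries of a group came from different animals. The p-values below therefore reflect the spread of duplicate libraries, and that spread may be technical. RNA was amplified linearly before library preparation, and in such bulk samples fewer cells of a type and less RNA per cell cannot be told apart.

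Rods and cones turn light into a change in glutamate release, and bipolar cells carry that signal to the inner retina. Both use ribbon synapses, which release vesicles continuously with a specialised set of release proteins. Between the first and the fourth week after birth photoreceptors elongate their light-sensitive outer segments, the eyes open, and bipolar cells join the circuit by making synapses with photoreceptors on one side and with amacrine and ganglion cells on the other.

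The compared libraries held 14.4 to 54.4 megareads, with the 4 bipolar libraries at 14.4 to 29.96 megareads, and lacked reads for 374 to 2384 of 13812 genes. Levels are in CPM, the usual depth-scaled read count, scaled by the authors to effective library size and not divided by gene length, so they compare samples for one gene and not genes with each other. In cones at P30, 38.7% and 28.6% of the reads came from the mitochondrial genome, against 2.54% to 9.88% in the other 10 libraries. The 18 rod genes summed to 28350 to 73730 CPM in rods and 391 to 1245 CPM in bipolars. In cones that sum was 9717 and 10120 CPM at P7 and 22420 and 18230 CPM at P30. Whether rod RNA contributed to the cone libraries was not tested. The 15 cone genes summed to 21880 to 57970 CPM in cones and 709 to 1665 CPM in rods and bipolars. The 19 bipolar genes summed to 10290 to 13010 CPM in bipolars and 1354 to 2491 CPM in photoreceptors. The list includes Otx2, which photoreceptors share. By the levels given below, Otx2 alone made up most of the sum in each rod library. The glutamate receptor Grm6, which defines ON-bipolar cells, was at 1031 to 1350 CPM in bipolars and without reads in all 4 rod libraries.

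Markers of other cells were higher in the bipolar libraries at P30 than at P7, and they are set apart here. The 42 Müller glia genes summed to 1842 and 1960 CPM in the bipolar libraries at P7 and to 12470 and 17470 CPM at P30. In rods the sum lay between 1658 and 1740 CPM at both ages, and in cones it was 3625 to 4034 CPM at P7 and 9419 to 9913 CPM at P30. All 42 glial genes had reads in bipolars at both ages, and in rods at P7 Aqp4, Gfap, S100a16 and Timp3 had none. Sums for 10 vascular genes in bipolars were 44.0 and 44.5 CPM at P7 and 412 and 529 CPM at P30, against 1.54 to 77.3 CPM in photoreceptors. For 10 microglial genes they were 7.40 and 16.6 CPM, then 550.2 and 1197 CPM, against 1.36 to 62.4 CPM in photoreceptors. Amacrine markers, 13 genes, summed to 601 and 763 CPM in bipolars at P7 and 919.9 and 1125 CPM at P30. The part of these cells in the changes below was not tested.

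**Figure D1:**
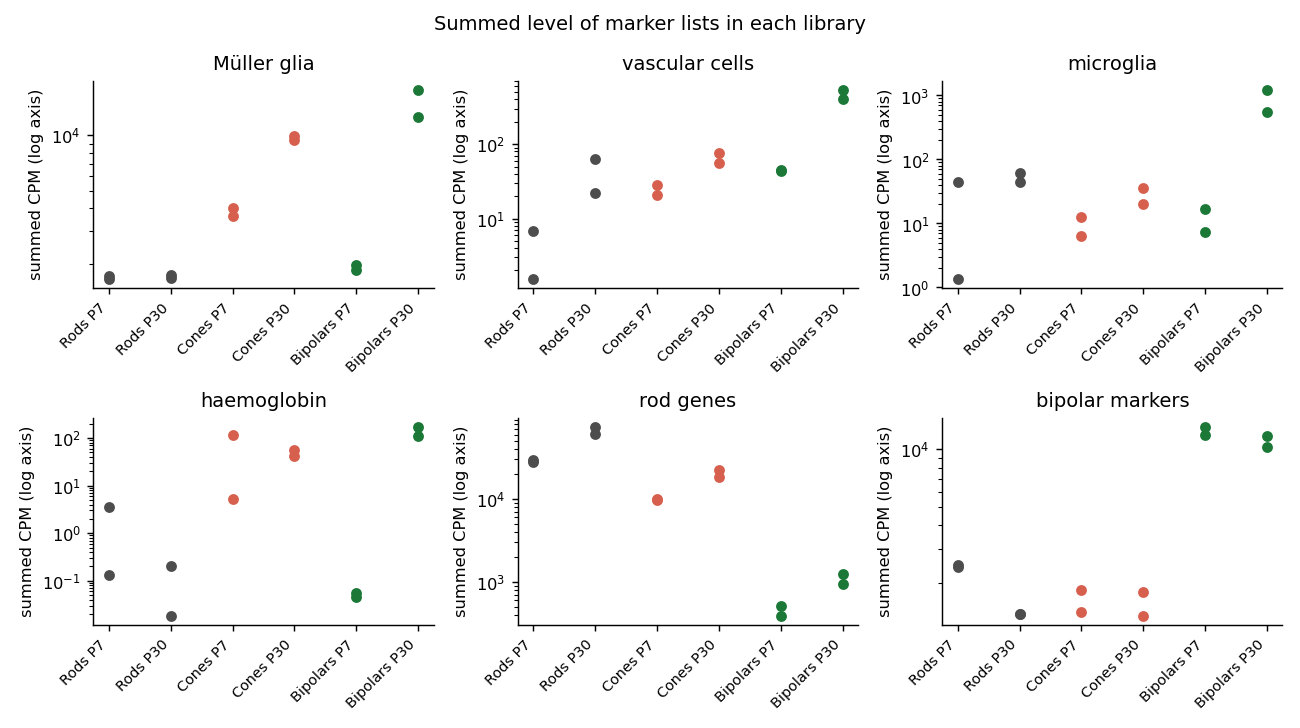
Summed CPM (log axis) of 6 marker lists in each of the 12 libraries, 1 point per library, by cell type and age. Müller glia, vascular and microglial sums are highest in the 2 bipolar libraries at P30, and bipolar markers lie between 10290 and 13010 CPM in the 4 bipolar libraries.

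Of 13405 genes tested, 1492 (11.1%) differed in their P7 to P30 change between bipolars and photoreceptors, by limma with a Benjamini-Hochberg adjusted p under 0.05 and an interaction of at least 1 in size. The value was positive for 920 (6.86%) and negative for 572 (4.27%). Positive calls made up 61.7% of the total with the authors' scaling and 80.1% with plain read totals, which moved the median interaction of all genes from 0.14 to 0.40. They made up 53.8% among genes with a mean log2 CPM of at least 3, where the median was -0.05, and 52.0% without replicate 1 of bipolars at P30. With the 51 glial genes set apart, 908 positive and 571 negative calls were counted. For 823 of the 920, every difference between a P30 and a P7 bipolar library was above every such difference in rods and in cones. This held for 14.2% of all genes tested, and the opposite order, found for 525 of the 572, for 10.2%. The order is read from the same library values as the calls, so it describes the called genes and is no separate support. Leaving out replicate 1 or 2 of bipolars at P7, or replicate 2 of bipolars at P30, left 775, 766 and 807 calls. Measured against rods alone and against cones alone, 341 of the positive and 180 of the negative genes were called both times. These comparisons share the bipolar libraries.

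The 3 changes that make up the interaction share its libraries and say which side moved. Bipolars on their own changed in 1669 genes (12.5%, with 7.95% higher and 4.5% lower at P30). Rods changed in 2660 (19.8%, with 10.7% higher and 9.15% lower) and cones in 1403 (10.5%, with 3.19% higher and 7.28% lower). The mean of the rod and cone changes passed in 2193 genes (16.4%, with 6.83% higher and 9.53% lower). The changes of rods and cones differed from each other in 1422 genes (10.6%), with 6.04% of all genes more positive in rods and 4.57% more positive in cones. Of the 920 positive genes, 500 rose in bipolars, and for 321 of these neither rods nor cones changed by the same rule. A further 329 had a fall in rods or cones and no call in bipolars. In 109 genes bipolars rose and rods or cones fell, and in 85 none of the 3 cell types passed on its own. Of the 572 negative genes, 221 fell in bipolars, 224 rose in rods or cones without a call in bipolars, and 119 had no cell type passing alone. Rods fell in 355 of the positive genes and cones in 183, and rods rose in 246 of the negative genes and cones in 93.

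**Figure D2:**
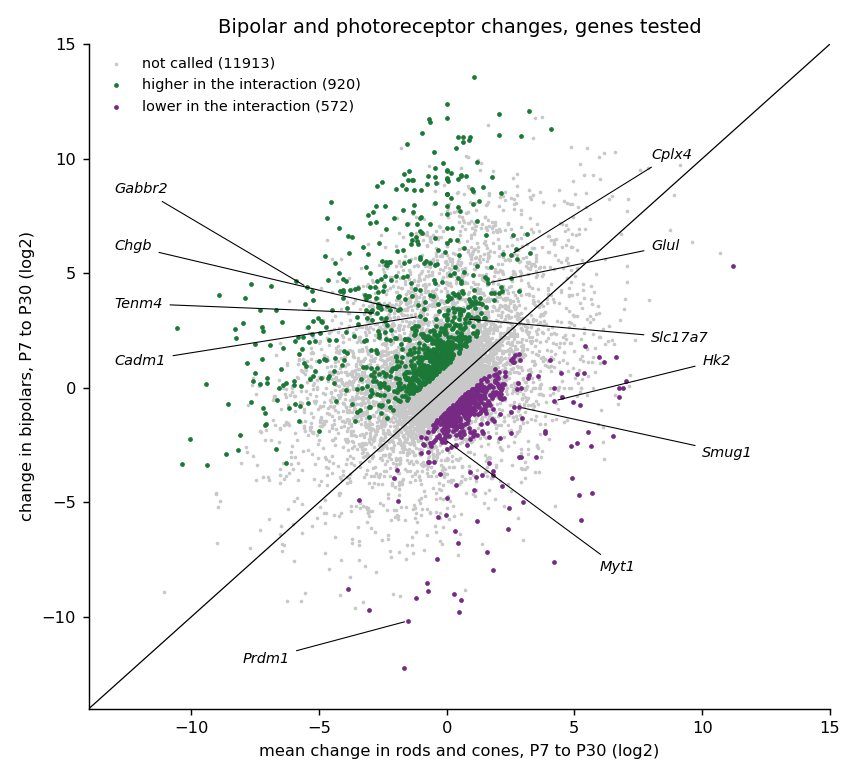
Log2 change from P7 to P30 in bipolars (vertical) against the mean change in rods and cones (horizontal) for the 13405 genes tested, with the line of equal change. The 920 genes called higher lie above the line and the 572 called lower lie below it. Chgb and Cadm1 combine a rise in bipolars with a negative photoreceptor mean, and Hk2 and Smug1 combine a positive photoreceptor mean with bipolar changes of -0.57 and -0.84.

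Cadm1, a synaptic adhesion molecule of the immunoglobulin superfamily (GRCm38, chr9:47530173-47857637, plus strand), rose in bipolars and fell in rods. In bipolars it was at 101 and 95.1 CPM in the P7 libraries and 824 and 875 CPM at P30. In rods it was at 1669 and 1949 CPM at P7 and 505 and 553 CPM at P30, and in cones at 364 and 279.6 CPM at P7 and 304 and 209 CPM at P30. Bipolars therefore started below both photoreceptor types and ended above them, with no overlap between bipolar and photoreceptor libraries at either age. The log2 change was 3.12 in bipolars, -1.77 in rods and -0.34 in cones, and only the cone change did not pass. The interaction was 4.17 ± 0.26 (SE, 2 libraries per group; limma adjusted p = 2.01e-07). At P13, an age outside the comparison, it was at 377 and 519 CPM in bipolars, 638 and 768 CPM in sorted rod bipolars and 724 and 690.4 CPM in sorted cone bipolars.

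Cplx4, a complexin that controls vesicle fusion at ribbon synapses, rose in all 3 cell types, most in bipolars. Bipolars held 4.70 and 2.26 CPM at P7 and 209 and 161 CPM at P30. Rods went from 257 and 184 to 1014 and 1127 CPM, and cones from 124 and 86.6 to 673 and 701 CPM. At P7 bipolars were below every photoreceptor library, and at P30 they were again below all 4. The bipolar log2 change of 5.81 exceeded those of rods (2.30) and cones (2.73), with an interaction of 3.30 ± 0.35 (limma adjusted p = 2.56e-05). Sorted cone bipolars at P13 held 130.3 and 132 CPM and sorted rod bipolars 16.4 and 12.3 CPM.

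Slc17a7, the vesicular glutamate transporter VGLUT1 that fills vesicles in both cell classes, was lower in bipolars than in photoreceptors at both ages. Its level in bipolars was 40.8 and 33.0 CPM at P7 and 310.2 and 281 CPM at P30. Rods held 326 and 302 CPM at P7 and 483 and 547 CPM at P30, and cones 703 and 597 CPM at P7 and 1084 and 1098 CPM at P30. The 2 ages did not overlap in any of the 3 cell types, but only the bipolar change (3.01) passed the threshold, against 0.71 in rods and 0.75 in cones. The interaction was 2.28 ± 0.19 (limma adjusted p = 4.37e-06). For these 3 genes the direction and the call held in each of the 23 other settings tried.

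**Figure D3:**
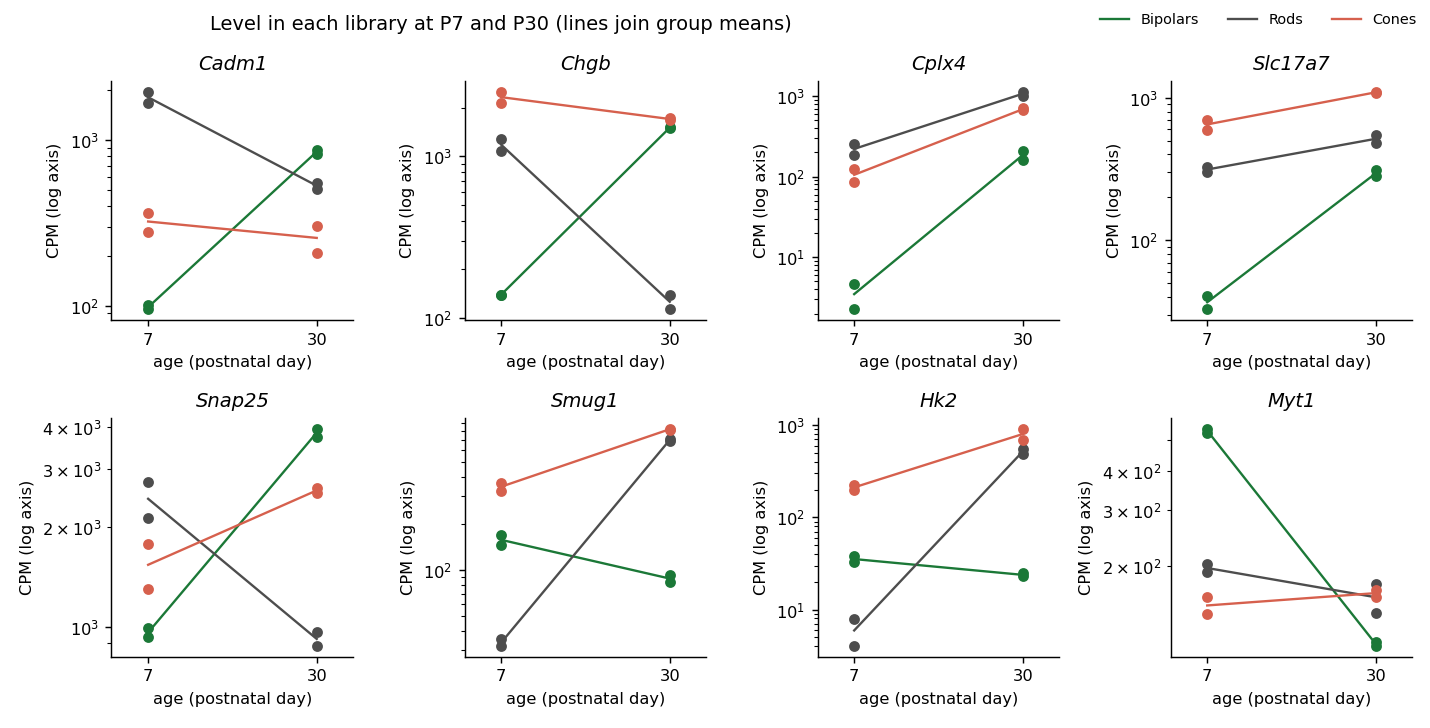
CPM (log axis) at P7 and P30 of 8 genes in bipolars, rods and cones, 1 point per library, with lines joining the group means. In Cadm1, Chgb and Snap25 the bipolar line rises and the rod line falls, in Cplx4 and Slc17a7 all lines rise, in Smug1 and Hk2 the photoreceptor lines rise, and in Myt1 the bipolar line falls.

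Of 39 genes of synaptic vesicles and their release, 14 were positive (35.9%, beside 6.86% of all genes) and 1 was negative, with a median interaction of 1.24 against 0.14 over all genes. From reads pooled over both libraries of a group, with groups under 3 reads set to 3 reads, these medians were 1.37 and 0.12. Snap25, a core fusion protein, was at 993 and 937 CPM in bipolars at P7 and 3745 and 3966 CPM at P30, while rods went from 2748 and 2129 to 879 and 967 CPM and cones from 1306 and 1780 to 2539 and 2630 CPM. Bipolars started below all 4 photoreceptor libraries and ended above them, with an interaction of 2.31 ± 0.21 (limma adjusted p = 7.25e-06). Nsf, the ATPase that takes spent fusion complexes apart, went from 393 and 374 to 1896 and 1785 CPM in bipolars (interaction 1.68 ± 0.23). The complexin Cplx3 was positive mainly through rods, where it fell by 3.44 on the log2 scale, from 251 and 284 to 17.9 and 33.7 CPM. The log2 change of Cplx3 was 0.98 in bipolars, just under the threshold, and 0.67 in cones, and the bipolar and cone differences overlapped.

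Beside these and Cplx4 and Slc17a7, the positive members were the vesicle glycoproteins Sv2a (2.57 ± 0.38) and Sv2b (1.36 ± 0.23), the vesicle GTPase Rab3a (1.37 ± 0.19), and Syn2, Cplx2, Sncb, Syp, Atp6v0a1 and Napa, at 1.04 to 7.91. In rods Sv2a, Rab3a, Syp, Atp6v0a1 and Cplx2 fell, and in bipolars Sv2b and Sncb rose. Cplx2 also stood lower at P30 in bipolars, at 15.8 and 11.1 CPM after 56.3 and 43.5 CPM, and its interaction of 3.07 turned to -0.14 with cones alone as the reference. The negative member was Amph, which acts in vesicle endocytosis: it fell in bipolars from 948 and 954 to 437 and 423 CPM and rose in rods from 159 and 101 to 309.8 and 291 CPM (interaction -2.23 ± 0.32, limma adjusted p = 3.31e-04). In the ribbon synapse list, which overlaps this one, 5 of 24 were positive (20.8%) and none negative: Cplx4, Cplx3, Snap25, Slc17a7 and Sv2b. The scaffold genes Ctbp2, Bsn and Pclo did not pass. Ctbp2, which encodes the ribbon protein RIBEYE, had an interaction of 0.62 ± 0.31 (limma adjusted p = 0.223), Bsn of -0.57 ± 0.36 (adjusted p = 0.339) and Pclo of 0.97 ± 0.33 (adjusted p = 0.0634). The number of positive vesicle genes ranged from 8 to 16 with 1 library left out, and was 8 without replicate 1 of bipolars at P7.

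Adhesion molecules were examined in 4 lists. In the Cadm and nectin family, which joins cells across synapses and junctions, Cadm1 and Cadm3 were positive (22.2% of 9 tested, beside 6.86% of all genes). Afdn, the cytoplasmic partner of nectins, was negative (11.1%, beside 4.27% of all genes). Cadm3 differed from Cadm1 in that bipolars did not pass (92.6 and 122 CPM at P7, 75.2 and 82.1 CPM at P30) and rods fell from 52.9 and 86.3 to 6.77 and 5.99 CPM. Cadm2 had an interaction of 0.66 ± 0.19, under the size threshold, and Cadm4 of 2.76 ± 1.20 (limma adjusted p = 0.151). Without either bipolar library at P30, or replicate 1 of bipolars or of cones at P7, 1 gene of the family was positive.

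Of 38 other immunoglobulin-type adhesion genes, 8 were positive (21.1%) and Igsf9 was negative, with a median of 1.01 (1.21 with the floor of 3 reads). Igsf21, a synaptic adhesion molecule, was similar at both ages in bipolars (148 and 141 CPM at P7, 121 and 151 CPM at P30) while it fell in rods from 116 and 105 to 1.11 and 1.90 CPM and in cones from 148 and 94.4 to 31.0 and 46.1 CPM, which gave 3.85 ± 0.35 (limma adjusted p = 6.84e-06). Igsf11 rose in bipolars from 18.2 and 16.6 to 41.6 and 59.0 CPM and Igsf8 from 30.3 and 22.4 to 109.6 and 80.8 CPM. Sdk1, L1cam, Dscam, Alcam and Ntm were also positive, the first 4 at under 10 CPM in both bipolar libraries at P7. Sdk1, which guides synaptic partners to the same layer, was at 8.19 and 6.44 CPM at P7 and 23.5 and 12.96 CPM at P30 in bipolars and had no reads in cones at P30. Leaving out any of the 4 bipolar libraries gave 3 to 5 positive genes in place of 8.

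Among neurexin, teneurin and latrophilin genes, 3 of 25 were positive and none negative. Tenm4, a teneurin that binds latrophilins across the synapse, rose in bipolars from 14.0 and 11.8 to 145 and 104 CPM and in cones from 35.4 and 33.3 to 69.1 and 73.6 CPM, and fell in rods from 53.8 and 34.4 to 0.611 and 0.372 CPM. Rods and cones thus moved in opposite directions, and the interaction against their mean was 5.97 ± 0.40 (limma adjusted p = 6.09e-07). The latrophilin Adgrl2 was at 331 and 321 CPM at P7 and 413 and 429.7 CPM at P30 in bipolars and fell in rods and cones, and Clstn1 fell in rods from 772 and 1228 to 282 and 324 CPM. Without replicate 1 of rods at P30 the count was 7, and without replicate 1 of rods at P7 it was 5. Of 24 cadherins 4 were positive (16.7%). Pcdh15 rose in bipolars from 18.6 and 15.7 to 123 and 107 CPM beside 652 and 571 CPM at P7 and 744 and 569.5 CPM at P30 in rods (2.41 ± 0.26, limma adjusted p = 3.57e-05). Cdh4, Cdh9 and Cdh12 were the others. The count was 1 or 2 without any of the 4 bipolar libraries, replicate 2 of rods at P7 or replicate 1 of cones at P7.

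Ion channels and pumps that set the resting state of the cell were examined in 3 lists. Of 25 potassium channel genes 6 were positive (24.0%) and none negative, with a median of 1.94 (1.65 with the floor of 3 reads). Kcnab2, a channel beta subunit, rose in bipolars from 18.8 and 13.9 to 164 and 175 CPM (2.74 ± 0.45). Kcnb2, Kcnip3 and Kcnh2 also passed, each with cones at P30 under 0.3 CPM. The count was 3 without replicate 1 of bipolars at P7 or replicate 2 of bipolars at P30.

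The pump list had 4 positive members of 16. The sodium pump subunit Atp1b2 fell in rods and rose in bipolars from 931 and 835 to 2007 and 2074 CPM. The calcium pump Atp2b1 rose in bipolars from 237 and 239.5 to 921 and 788 CPM and stood at 196 and 167 CPM at P7 and 182 and 245 CPM at P30 in rods (1.73 ± 0.25). Of 23 sodium and calcium channel genes Cacna1h and Cacnb2 were positive (8.7%, near the 6.86% of all genes tested). Cacnb2, a beta subunit of voltage-gated calcium channels, rose in bipolars from 6.84 and 7.74 to 81.6 and 91.4 CPM (2.66 ± 0.37). Cacna1f, the pore subunit of the calcium channel at ribbons, had an interaction of 0.81 ± 0.22 (limma adjusted p = 0.0257), under the size threshold.

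Of 22 GABA and glycine receptor genes 2 were positive (9.09%) and 1 negative (4.55%), and of 27 glutamate receptor genes 1 was positive (3.70%) and none negative, beside 6.86% and 4.27% of all genes tested. With log2(CPM + 1) in place of the deposited log2 values, which carry a far smaller prior, the positive counts were 8 and 7. Gabbr2, a subunit of the metabotropic GABA receptor, rose in bipolars from 4.28 and 5.14 to 102 and 95.1 CPM, had 26.9 and 27.3 CPM at P7 and 12.3 and 11.6 CPM at P30 in cones, and had no reads in rods at P30 after 3.03 and 12.6 CPM at P7. The rod level at P7 was at least 248-fold higher than the level of 3 reads over both rod libraries at P30. The fitted interaction of 9.85 ± 0.73 depends on the small prior in the deposited values. From reads pooled per group, with groups under 3 reads set to 3 reads, it was 8.98. Gabrr3, a subunit of a GABA-gated chloride channel, was negative and rose in rods from no reads to 3.01 and 6.62 CPM. Grm7, the glutamate receptor gene called, was at 2.42 and 2.60 CPM at P7 and 54.5 and 39.8 CPM at P30 in bipolars and fell in rods.

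**Figure D4:**
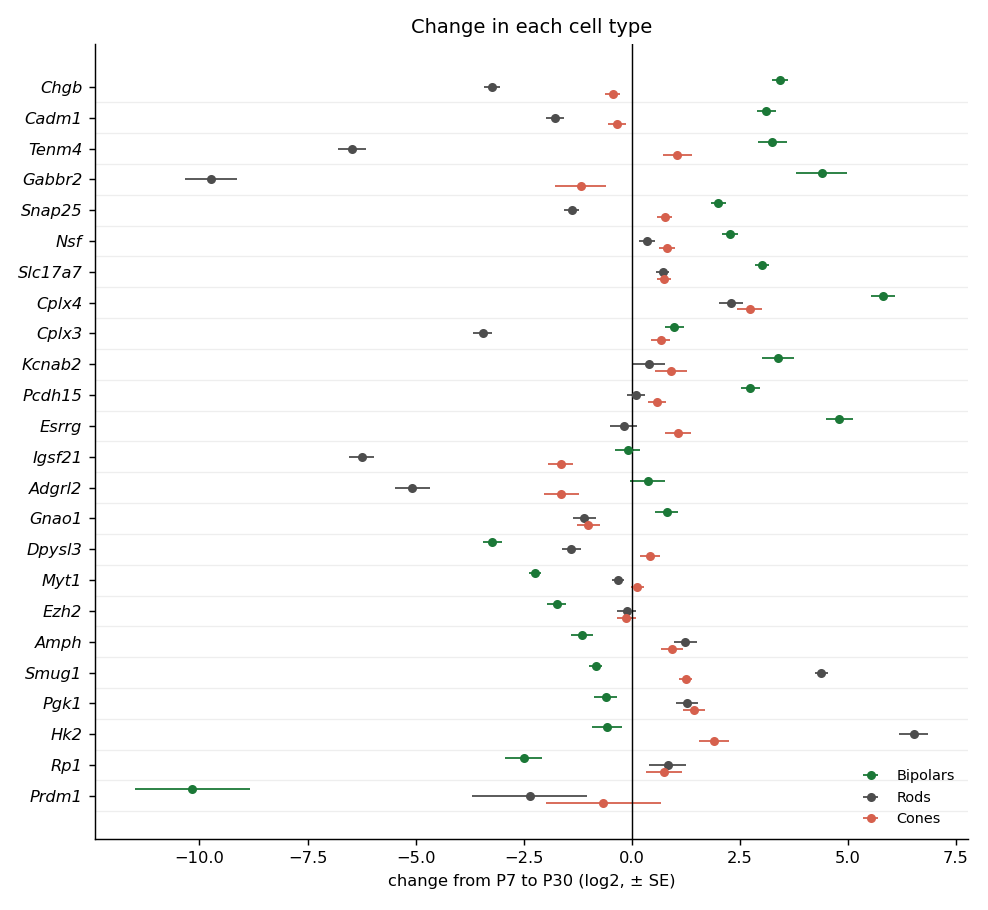
Log2 change from P7 to P30 (points, with SE bars) in bipolars, rods and cones for 24 genes named in the text. From Chgb to Esrrg the bipolar change is above the changes of rods and cones, for Igsf21 and Adgrl2 the rod changes are -6.25 and -5.07, and from Dpysl3 on the bipolar change is below the mean of rods and cones.

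By lowest p, a choice made after the values were seen, the strongest positive gene was Chgb, chromogranin B of dense-core secretory granules. It was at 139.9 and 139 CPM in bipolars at P7 and 1488 and 1521 CPM at P30. In rods it went from 1287 and 1073 to 114 and 139 CPM, and in cones from 2143 and 2502 to 1717 and 1685 CPM. Bipolars and rods thus exchanged places, and the interaction was 5.27 ± 0.22 (limma adjusted p = 2.55e-09). At P13 the sorted rod bipolars held 2357 and 3114 CPM and the sorted cone bipolars 268 and 354 CPM, with no overlap.

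Others of this group rose in bipolars. Esrrg, an orphan nuclear receptor, rose from 13.1 and 9.21 to 263 and 359 CPM in bipolars (4.36 ± 0.38). It also rose in cones, by 1.07 on the log2 scale. Plekhb1 went from 82.3 and 83.8 to 846 and 729 CPM in bipolars beside 1028 to 4280 CPM in photoreceptors, where neither change passed. Sirpa, a membrane receptor for the adhesion molecule CD47, rose from 7.54 and 9.66 to 70.3 and 65.3 CPM, and the lysosomal peptidase Tpp1 from 52.2 and 44.7 to 280.1 and 283 CPM. The lysosomal protease Lgmn (2.95 ± 0.25) and Dlc1, a GTPase-activating protein (3.75 ± 0.31), rose in bipolars and fell in rods.

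Some genes of immature neurons fell in each cell type. Of 26 such genes 12 fell in bipolars, 13 in rods and 8 in cones, with median log2 changes of -2.48, -2.04 and -2.59, beside 4.5%, 9.15% and 7.28% of all genes tested. In the interaction 2 were negative (7.69%, beside 4.27% of all genes) and none positive, while the median of the list was 0.35, above the 0.14 of all genes. With log2(CPM + 1) 7 were negative and the median was -0.26. Dpysl3, which shapes the growth cone cytoskeleton, fell in bipolars from 495 and 622 to 55.9 and 62.9 CPM and in rods from 1861 and 1811 to 758 and 639 CPM, and stood at 1065 and 1152 CPM at P7 and 1429 and 1536 CPM at P30 in cones (-2.74 ± 0.27, limma adjusted p = 1.77e-05). Fabp5 was the other (-1.87 ± 0.51), and without replicate 1 or 2 of bipolars at P7, or replicate 1 at P30, 1 gene of the list was negative. Myt1, a zinc finger factor of neuronal differentiation, fell in bipolars from 527 and 543 to 112 and 115 CPM and was at 191 and 203 CPM at P7 and 176 and 143 CPM at P30 in rods and 141 and 159.7 CPM at P7 and 160.4 and 169 CPM at P30 in cones. Bipolars were above all photoreceptor libraries of the same age at P7 and below them at P30 (-2.14 ± 0.17, limma adjusted p = 2.89e-06).

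Some genes for RNA-binding proteins and chromatin also fell in bipolars. Hnrnpab fell in bipolars from 206 and 223 to 45.5 and 42.4 CPM, Hnrnpdl from 1073 and 989 to 436 and 447 CPM and Rbmx from 249 and 243 to 109 and 112 CPM, and in none of them did rods or cones pass. These 3 were picked by p after their values were seen. Of 27 chromatin genes 4 were negative and 4 positive (14.8% each, beside 4.27% negative and 6.86% positive of all genes). Ezh2, the histone methyltransferase of Polycomb complex PRC2, fell in bipolars from 258 and 257 to 81.1 and 74.2 CPM beside 69.3 and 57.0 CPM at P7 and 59.2 and 56.8 CPM at P30 in rods (-1.61 ± 0.27, limma adjusted p = 0.00106). The DNA demethylase Tet3 (-1.32 ± 0.28), the lamin Lmnb1 (-2.54 ± 0.55) and the nucleosome-binding Hmgn1 (-1.49 ± 0.26) were negative. Positive were the DNA methyltransferase Dnmt3a (1.22 ± 0.22), Tet1 (2.66 ± 0.83), Hmgn3 (1.77 ± 0.29) and Hmgn2 (1.01 ± 0.31). Hmgn2 fell in all 3 cell types, least in bipolars. The positive count was 2 without any one of 9 of the 12 libraries, all 4 rod and all 4 bipolar libraries and replicate 2 of cones at P7.

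Another group was negative with a rise in photoreceptors. Smug1, a uracil-DNA glycosylase of base excision repair and the negative gene of lowest p, was at 35.2 and 32.0 CPM in rods at P7 and 689 and 710.4 CPM at P30, and at 367 and 327 CPM at P7 and 814 and 829 CPM at P30 in cones. In bipolars it was at 168 and 145 CPM at P7 and 92.1 and 83.3 CPM at P30, a log2 change of -0.84, under the size threshold. The interaction was -3.65 ± 0.19 (limma adjusted p = 2.01e-08). Rabgef1, which activates the endosomal GTPase Rab5, rose in rods from 68.4 and 86.1 to 656 and 707 CPM and in cones from 41.0 and 32.8 to 161 and 232 CPM, and stood at 25.1 and 27.6 CPM at P7 and 34.6 and 26.2 CPM at P30 in bipolars.

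Glycolysis genes split, with 4 of 22 positive (18.2%) and 3 negative (13.6%), beside 6.86% and 4.27% of all genes. Hk2, a hexokinase that catalyses the first step of glycolysis, rose in rods from 7.84 and 4.03 to 544 and 491 CPM and in cones from 225 and 197 to 684 and 915 CPM. In bipolars it was at 32.6 and 37.9 CPM at P7 and 22.9 and 24.6 CPM at P30, below all photoreceptor libraries at P30 and above both rod libraries at P7 (-4.78 ± 0.42, limma adjusted p = 5.72e-06). Pgk1 rose in rods and cones as well (-1.97 ± 0.32), and Tpi1 was the third (-1.19 ± 0.30). The regulatory enzyme Pfkfb2, outside the list, rose in rods from 60.4 and 46.5 to 484 and 446 CPM (-2.67 ± 0.31). Positive were Eno2, the neuronal enolase, which rose in bipolars from 44.2 and 49.3 to 279.8 and 347 CPM (2.35 ± 0.25), Pfkm, the glucose transporter Slc2a1, and Aldoc, which is also a glial marker. Without replicate 1 of cones at P7 the negative count was 5.

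Photoreceptor genes themselves were called in both directions. Of 18 rod genes 3 were positive and 2 negative (16.7% and 11.1%, beside 6.86% and 4.27% of all genes). Of 15 cone genes 5 were positive and 1 negative (33.3% and 6.67%). Of 27 genes shared by rods and cones 5 were positive and 5 negative (18.5% each), with Rcvrn in both the rod and the shared list. Gnat1, the rod transducin alpha subunit, is an example of one that did not pass: it rose in rods from 108 and 139.6 to 6420 and 7463 CPM, and in bipolars, at a far lower level, from 1.95 and 1.13 to 39.2 and 54.8 CPM (interaction -0.90 ± 0.40, limma adjusted p = 0.158). Gngt1, the rod transducin gamma subunit, rose in bipolars from 16.4 and 9.33 to 335 and 422 CPM beside 2629 to 6675 CPM in rods (3.90 ± 0.41). Cngb1, which forms the light-controlled channel of rods with another subunit, rose in bipolars from 9.87 and 5.77 to 139 and 93.2 CPM beside 878 to 1080 CPM in rods and 19.6 to 36.2 CPM in cones (3.73 ± 0.40, limma adjusted p = 3.20e-05). The summed rod list in bipolars was 391 and 508 CPM at P7 and 948 and 1245 CPM at P30, and whether rod RNA contributed to these values was not tested.

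Thrb, the thyroid hormone receptor of cones, rose in bipolars from 2.00 and 1.13 to 31.2 and 43.8 CPM and was at 682 and 647 CPM at P7 and 393 and 499.6 CPM at P30 in cones (4.78 ± 0.93). Gngt2, the cone transducin gamma subunit, was positive at 2.25 and fell in rods from 319 and 265 to 9.33 and 3.74 CPM, and its value was -1.06 with cones alone as the reference. Gnat2, the cone transducin alpha subunit, was negative (-4.60 ± 0.67), mainly through rods, where it rose from 0.0201 and 0 to 18.2 and 14.2 CPM. In cones it rose from 1950 and 2144 to 6844 and 6978 CPM. The log2 change of Gnat2 was 1.36 in bipolars, close to the 1.76 in cones, and 10.15 in rods. The rod value depends on the small prior, and the interaction from pooled reads with the floor of 3 reads was -4.01. Among the negative genes, Prdm1, a factor that favours photoreceptor over bipolar fate, fell in bipolars. It was at 93.1 and 85.3 CPM in bipolars at P7 and 0.821 and 0 CPM at P30, against 367 and 310 CPM at P7 and 62.1 and 69.0 CPM at P30 in rods (-8.65 ± 1.63, limma adjusted p = 0.00282). The fitted size for Prdm1 depends on the small prior, and from pooled reads with the floor of 3 reads it was -6.11. Nr2e3, a rod nuclear receptor, fell in bipolars from 48.5 and 21.8 to 0.730 and 1.53 CPM and in cones from 144 and 77.6 to 37.0 and 12.2 CPM, and Rp1, an axonemal protein of outer segments, fell in bipolars from 12.6 and 8.42 to 3.53 and 0.931 CPM. The positive count of the shared list was 2 or 3 without replicate 2 of bipolars at P7 or either bipolar library at P30, and 1 with limma-voom, which weights each value by its read count. With limma-voom the negative count of the rod list was 0, with 5 of its 18 genes at an unadjusted p under 0.05, and with log2(CPM + 1) it was 8. By limma it was 0 without replicate 1 of bipolars at P7, with 9 of the 18 at an unadjusted p under 0.05 in either direction, 3 without replicate 2 of bipolars at P30, and 1 without any of 7 others (replicate 2 of each group at P7, replicate 2 of rods at P30, both cone libraries at P30 and replicate 1 of bipolars at P30).

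The homeodomain factors CRX and OTX2, which bipolars and photoreceptors share, bind the motif TAATCC. To show where it sits in called photoreceptor genes, the 250 bases before the transcription start of 4 of them are printed (RefSeq, GRCm38.p6, gene strand). The 4 were picked from those that hold the motif, and TAATCC or its reverse complement GGATTA is in capitals. Cngb1 (chr8:95306586-95306835, minus strand), Aipl1 (chr11:72037510-72037759, minus strand) and Rbp3 (chr14:33953753-33954002, plus strand) were positive, and Samd7 (chr3:30746043-30746292, plus strand) was negative.
Cngb1: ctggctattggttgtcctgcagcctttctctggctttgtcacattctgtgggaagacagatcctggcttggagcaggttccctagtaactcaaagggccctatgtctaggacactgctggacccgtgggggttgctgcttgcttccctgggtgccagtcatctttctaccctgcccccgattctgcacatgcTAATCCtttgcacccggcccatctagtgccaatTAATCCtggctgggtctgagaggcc
Aipl1: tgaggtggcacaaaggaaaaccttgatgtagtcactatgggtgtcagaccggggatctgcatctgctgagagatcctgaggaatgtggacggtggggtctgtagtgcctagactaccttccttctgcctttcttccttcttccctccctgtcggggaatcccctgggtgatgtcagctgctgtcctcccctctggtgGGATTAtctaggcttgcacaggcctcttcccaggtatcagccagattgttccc
Rbp3: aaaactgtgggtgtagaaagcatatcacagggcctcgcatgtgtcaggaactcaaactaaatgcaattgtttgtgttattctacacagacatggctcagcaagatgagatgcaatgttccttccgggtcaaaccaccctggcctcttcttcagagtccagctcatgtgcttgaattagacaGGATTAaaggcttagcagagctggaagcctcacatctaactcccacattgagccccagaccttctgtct
Samd7: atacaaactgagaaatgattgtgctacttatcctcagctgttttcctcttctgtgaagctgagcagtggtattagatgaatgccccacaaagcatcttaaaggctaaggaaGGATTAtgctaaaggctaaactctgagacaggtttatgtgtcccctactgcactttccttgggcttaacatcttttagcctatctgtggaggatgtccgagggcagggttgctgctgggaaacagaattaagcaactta
The motif, searched on both strands, was found in 6 of 8 positive and 3 of 6 negative photoreceptor genes that have a promoter entry. Counted by gene, it was in 18 of 43 genes of the photoreceptor lists (41.9%) and in 6.52% of all genes tested that have an entry. Counted by promoter, it was in 18 of 56 promoters of these lists (32.1%) and in 6.25% of all 32851 promoters. A match says only that these letters are present. Over all called genes the motif was in 6.0% of the promoters of positive and 6.3% of those of negative genes, beside 5.32% for all genes tested. Aipl1, a chaperone for the visual phosphodiesterase, rose in bipolars from 2.75 and 2.09 to 11.4 and 11.1 CPM and in rods from 377 and 394 to 1066 and 1144 CPM (1.35 ± 0.34). Rbp3, a retinoid carrier, fell in rods from 1868 and 1724 to 561 and 848 CPM and was at 78.1 and 68.9 CPM at P7 and 147 and 113 CPM at P30 in bipolars (1.46 ± 0.31). Samd7, a photoreceptor silencing protein, fell in bipolars from 27.5 and 16.8 to 2.01 and 0 CPM (-7.11 ± 1.91). That fitted size depends on the small prior, and from pooled reads with the floor of 3 reads it was -4.07. Otx2 itself fell in bipolars, from 2311 and 2144 to 1075 and 953 CPM, and in rods, from 2167 and 2066 to 819 and 879 CPM, and had an interaction of -0.29 ± 0.18 (limma adjusted p = 0.335). Crx had an interaction of -0.02 ± 0.17 (limma adjusted p = 0.96).

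Of 19 genes that define bipolar cells 1 passed, Prdm8, which rose in rods and cones and stood at 851 and 728 CPM at P7 and 609 and 555 CPM at P30 in bipolars (-2.22 ± 0.35). Many have few or no reads in photoreceptors, and the count depended on the prior: with log2(CPM + 1) 5 were positive and 2 negative, and with array quality weights 3 and 1. Trpm1, the channel that opens when light comes on, was at 173 and 149.5 CPM in bipolars at P7 and 756 and 652 CPM at P30, with an interaction of 2.84 ± 3.19 (limma adjusted p = 0.63). The Purkinje cell protein Pcp2, also made in rod bipolars, was at 7.91 and 11.98 CPM at P7 and 146 and 151 CPM at P30 (5.42 ± 2.18, limma adjusted p = 0.12). Grm6 was in bipolars at 1122 and 1055 CPM at P7 and 1350 and 1031 CPM at P30. In the cascade from mGluR6 to Trpm1, 3 of 14 were positive (21.4%) and 1 negative (7.14%), beside 6.86% and 4.27% of all genes. Gnao1, the G protein alpha subunit of the cascade, was at 895 and 746 CPM in bipolars at P7 and 1509 and 1348 CPM at P30 and fell in rods and cones (1.85 ± 0.33). The beta subunit gene Gnb3 was also positive and fell in rods. The negative gene Rgs9bp, which anchors regulators of G proteins, rose in all 3 cell types, most in rods, from 263 and 115 to 2419 and 2340 CPM.

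**Figure D5:**
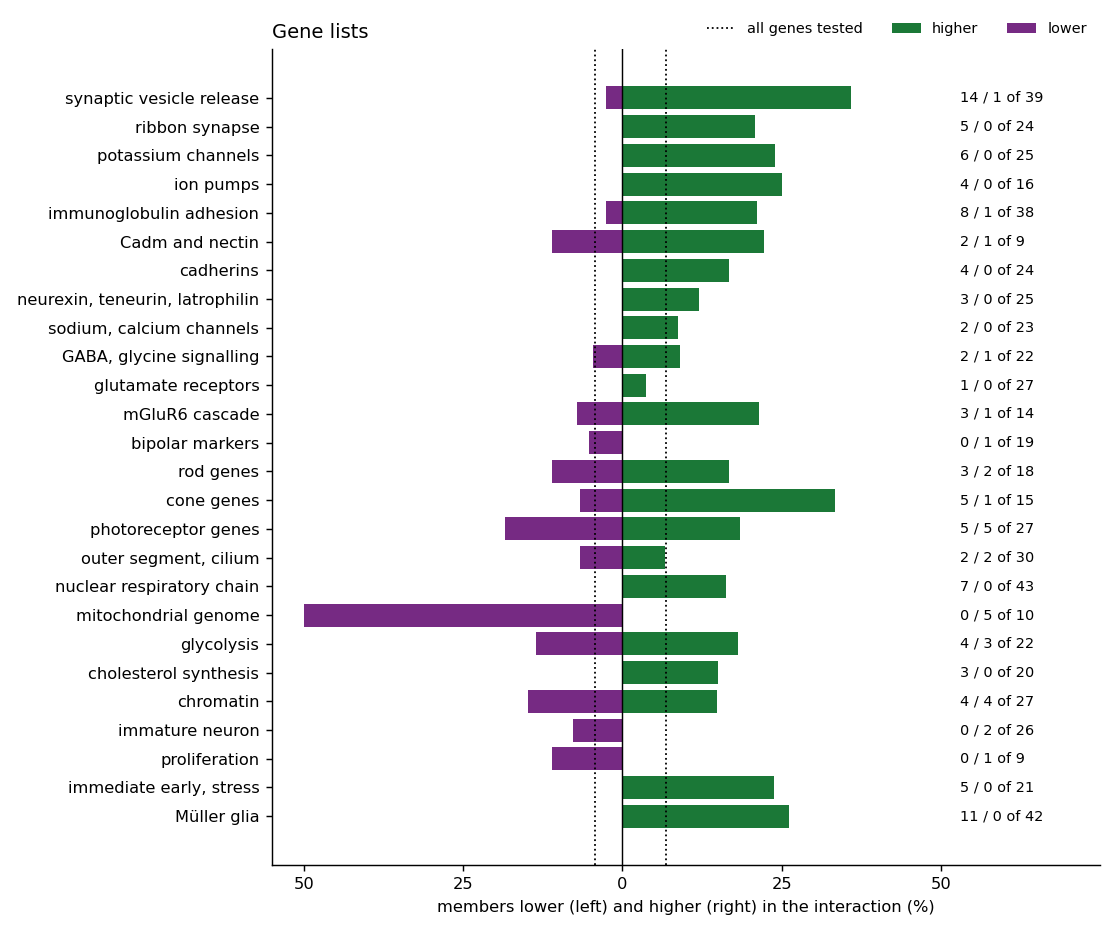
Share of the tested members of 26 gene lists that were called lower (left, purple) or higher (right, green) in the interaction, in percent, with counts at the right as higher / lower of tested. Dotted lines give the shares over all 13405 genes, 6.86% higher and 4.27% lower, and the vesicle list reaches 35.9% higher.

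Of 43 nuclear genes of the respiratory chain 7 were positive (16.3%, beside 6.86% of all genes) and none negative, with a median of 0.86. The median change was 0.04 in bipolars and -1.45 in rods. In rods 28 of the 43 fell, beside 9.15% of all genes tested. Cox4i1, a subunit of cytochrome oxidase, was at 368 and 399 CPM at P7 and 347 and 412 CPM at P30 in bipolars and fell in rods from 1196 and 1276 to 165 and 274 CPM (1.44 ± 0.34). The positive count was 20 with plain read totals, 13 with scaling that leaves out mitochondrial transcripts, 15 without replicate 2 of rods at P30, and 3 and 4 without replicate 1 and 2 of bipolars at P7. Of 10 transcripts of the mitochondrial genome 5 were negative, mt-Nd2, mt-Nd4, mt-Nd5, mt-Nd6 and mt-Cytb, and their log2 changes were 1.20 to 1.47 in bipolars, 1.44 to 2.13 in rods and 2.89 to 3.90 in cones. mt-Nd4 went from 7179 and 6669 to 15330 and 16570 CPM in bipolars and from 7942 and 7704 to 131500 and 92410 CPM in cones (-1.66 ± 0.34). This count ranged from 1 to 8 with 1 library left out, with 1 without any one of the 4 bipolar libraries, 8 without replicate 2 of cones at P30, and 3 without replicate 2 of rods or cones at P7 or replicate 1 of rods or cones at P30. When only the 12 libraries compared were fitted, limma called 0 of these 10, with 5 at an unadjusted p under 0.05, and with plain read totals it called 2.

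Immediate early and stress genes, which can respond to handling of cells, were positive in 5 of 21 cases (23.8%, beside 6.86% of all genes). Egr1 was at 64.7 and 285 CPM in the 2 bipolar libraries at P30 and at 775 and 1876 CPM in cones at P7, so libraries of one group differed by over 2-fold. Nr4a1 rose in bipolars from 5.91 and 5.595 to 18.2 and 35.1 CPM, and Jun, Jund and Hspa8 fell in rods. Without replicate 2 of bipolars at P30 limma called 0 of the 21, with 6 at an unadjusted p under 0.05, and 2 or 3 were called without replicate 2 of rods or cones at P7 or either bipolar library at P7.

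The largest fitted interactions belonged mostly to genes with no reads in a group. At least 1 of the 6 groups had no reads for 204 of the 920 positive and 38 of the 572 negative genes, and the fitted values of such genes depend on the small prior and are no bound. Csn3, a milk casein gene, led at 13.16. It had 16.8 and 16.3 CPM in rods and 4.32 and 11.5 CPM in cones at P7 and no reads in either at P30. It had 3.80 and 0 CPM in bipolars at P30. Inhbb, a subunit of inhibin and activin, went from 66.3 and 47.6 CPM in rods to no reads, at least 1870-fold lower by the level of 3 reads, and stood at 3.49 and 2.60 CPM at P7 and 19.4 and 16.01 CPM at P30 in bipolars. Cabp2, a calcium-binding protein, was at 9.96 and 6.39 CPM in bipolars at P7 and 139 and 104 CPM at P30 and went from 13.6 and 9.23 CPM to no reads in rods.

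Gm30725 and Gm5478 had reads in bipolars at P30 alone among the 6 groups, at 37.7 and 39.4 CPM and 30.2 and 21.3 CPM, at least 503-fold and 342-fold above the level of 3 reads at P7. Ly6c1, known from endothelial cells, was at 81.7 and 95.7 CPM in bipolars at P30, at least 1150-fold above that level. Calcrl, Tm4sf1 and Col8a1, also known from vessels, and Tmem119, known from microglia, were at 6.78 to 28.8 CPM in bipolars at P30 and at most 0.372 CPM at P7. The vascular sum in bipolars was 44.0 and 44.5 CPM at P7 and 412 and 529 CPM at P30, and the microglial sum 7.40 and 16.6, then 550.2 and 1197 CPM. The part of those cells in these values was not tested. Il15 and Chil1 complete the 12.

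Of the 12 most negative genes, Nts, the neuropeptide precursor of neurotensin, was at 39.2 and 31.6 CPM in bipolars at P7 and without reads at P30, at least 713-fold lower. Gm8113 and Cnpy1 fell in bipolars from 46.2 and 46.0 CPM to 0.365 and 0 CPM and from 46.0 and 43.1 CPM to 2.19 and 0.0372 CPM. Pfkfb3, a regulatory enzyme of glycolysis, was at 134 and 135 CPM at P7 and 42.3 and 30.02 CPM at P30 in bipolars and rose in rods from no reads to 8.72 and 9.29 CPM. Ccn4, a secreted matricellular protein, rose in rods from 30.3 and 11.7 to 298 and 421 CPM, and Gramd2 from 0.903 and 0.548 to 141 and 118 CPM. Cd207 appeared in rods at P30 at 8.51 and 10.3 CPM. Col25a1, Prdm1, Nav3, Zfp773 and Crp were the others.

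Glial genes are given separately. Of 42 Müller glia genes 11 were positive (26.2%, beside 6.86% of all genes) and none negative, with a median of 2.32 (2.74 with the floor of 3 reads). In bipolars 18 of them rose, in rods 5 and in cones 4. Glul, glutamine synthetase, went in bipolars from 126 and 127 to 2432 and 3732 CPM, in rods from 91.8 and 72.8 to 159 and 81.7 CPM and in cones from 46.9 and 48.3 to 299 and 339 CPM (2.96 ± 0.37, limma adjusted p = 1.09e-04). Clu, clusterin, went in bipolars from 10.2 and 9.78 to 559.9 and 833 CPM (5.42 ± 0.49), Apoe from 8.98 and 8.59 to 126 and 162 CPM, the glutamate transporter Slc1a3 from 9.26 and 8.48 to 171 and 293 CPM and Aldoc from 5.91 and 8.20 to 276 and 265 CPM. In each of these 5 genes both bipolar libraries at P30 were above all other 10 libraries. Rax, in the list but also active in photoreceptors, was lower in bipolars at P30 (12.4 and 16.2 CPM) than in any photoreceptor library. Microglial genes gave 0 calls of 10 by limma, with 1 at an unadjusted p under 0.05, and 1 call by limma-voom. With log2(CPM + 1) 8 of these 10 were positive, with array quality weights 1, and the median was 4.32 in the main analysis and 4.07 with log2(CPM + 1). Vascular genes gave 4 of 10, and 0 without any one of the 4 bipolar libraries, when 5 were at an unadjusted p under 0.05. The vascular count was 1 or 2 without replicate 2 of rods at P7, either cone library at P7 or replicate 1 of cones at P30. Haemoglobin genes gave 3 of 4, and 1 without either bipolar library at P7 or replicate 2 of bipolars at P30. Their sum was 0.0465 to 0.0565 CPM in bipolars at P7 and 111 to 169 CPM at P30, against 5.21 to 114 CPM in cones at P7. Haemoglobin genes are near-identical copies, so their separate values are uncertain.

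Of 30 outer segment and cilium genes 2 were positive (6.67%) and 2 negative (6.67%), near the 6.86% and 4.27% over all genes tested. The negative count was 1 with plain read totals, with limma-voom and without replicate 1 of rods at P30, replicate 2 of cones at P7 or either bipolar library at P7. Of 20 cholesterol synthesis genes 3 were positive, Srebf2, Hmgcs1 and Sqle, and none negative, a share of positive calls above the 6.86% of all genes. That count was 5 to 8 with log2(CPM + 1), the 12 libraries alone, array quality weights, plain read totals or limma-voom. By limma it was 0 without replicate 2 of cones at P7 or replicate 1 of bipolars at P7 or at P30, with 6 or 7 at an unadjusted p under 0.05, and 1 without replicate 1 of rods at P30 or replicate 2 of bipolars at either age. Among genes of dividing cells 1 of 9 was negative (11.1%, beside 4.27% of all genes), Ccna2, the S-phase cyclin. Markers of amacrine, ganglion and pigment epithelial cells gave 0 calls of 13, 9 and 6 by limma, with 1, 1 and 0 at an unadjusted p under 0.05 and 0 by limma-voom, and 1, 1 and 0 with log2(CPM + 1), and of 6 horizontal cell genes Sept4 was positive.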

How the data were processed

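RNA of sorted mouse retinal cells was amplified linearly and sequenced from TruSeq v2 libraries, per the labels. The authors deposited log2 CPM values for 13812 genes in 22 libraries, made with STAR and edgeR on GRCm38 (mm10) per the submitters' processing notes, which give no versions. Read counter, annotation and use of strand were not given in the sources used here, so overlapping genes and near-identical copies cannot be told apart. The deposited log2 values include a small prior, and a gene without reads sits at -7.10 in every library. Removing the prior gave whole reads within 0.01 for 100% of values, and these reads supply the depths, the level of 3 reads used as a floor, and the CPM printed. The floors cover counting error only. Values given with the floor of 3 reads were computed from reads pooled over both libraries of a group, not from the fit. The 27 identifiers without a symbol, 0.109% of reads, were left out.

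A gene was tested where some group had both libraries at a log2 CPM of 0 or more (13405 genes, with 380 removed). limma 3.58.1 in R 4.3.3 fitted 1 mean per group to all 22 libraries with an intensity trend (11 residual degrees of freedom). Values after ± are standard errors of this fit and reflect the spread of duplicate libraries. Calls required a log2 value of at least 1 in size and a p under 0.05 after Benjamini-Hochberg adjustment across the 13405 genes. All adjusted p-values in the text are from this fit. In log2 values simulated with normal noise around each gene's mean, it recovered 44% of interactions of size 2 and 58% of those of size 3. There were 100 of each among 13405 genes, with 9 false calls. The changes were placed in bipolars at P30 alone and not in the genes of widest spread, and no reads were drawn.

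Named genes were the 12 most positive and 12 most negative called genes with a group mean log2 CPM of at least 3, bipolar differences beyond all photoreceptor differences and no place in a list of other-cell markers, then Cadm1, Cplx4 and Slc17a7, and up to 6 called members per list by size (8 for glial lists). Genes named beyond that rule, including those taken by lowest p, were picked after their values were seen. The comparison, its members and the gene lists were chosen with earlier results of these data known. Alternatives were another prior, other filters, scalings, weights and reference cells, 12 libraries alone, a replicate block, limma-voom and leaving out each library. Some genes called in these lists are counted but not reported here by name.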

Additional observations from a re-analysis of the deposited data

Results flagged for a closer look

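In the named genes Gabbr2, Tenm4 and Cadm1 the level changed in opposite directions in bipolars and in the mean of rods and cones, each change passing its own test. The interaction was 9.85 for Gabbr2, 5.97 for Tenm4 and 4.17 for Cadm1, tested directly by the interaction term. Over all genes tested 55 met this description. The changes of rods and cones themselves differed in 1422 genes by the same kind of term, so the mean of both stands for unlike changes in those genes.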

How the results depend on the processing

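The interaction gave 1492 calls, and 1447 to 1759 under other filters, plain read totals, scaling without mitochondrial transcripts, the 12 libraries alone, limma-voom or without listed non-neuronal markers. With log2(CPM + 1) it gave 2896 and with array quality weights 2413. A floor on the mean (log2 CPM of at least 3), chosen like limma-voom and the marker removal after seeing the data, tested 8211 genes and gave 1273. Leaving out 1 library gave 766 to 1907 calls, with 766, 775 and 807 without replicate 2 or 1 of bipolars at P7 or replicate 2 of bipolars at P30. Rods alone as reference gave 1934 and cones alone 1114, where Gngt2 turned to -1.06 and Cplx2 to -0.14. List counts moved with the prior. With log2(CPM + 1) positive calls were 31 of 42 for Müller glia, 12 of 25 for neurexins, neuroligins, teneurins and latrophilins, 15 of 38 for immunoglobulin adhesion genes, 8 of 23 for sodium and calcium channels and 9 of 15 for cone genes, against 11, 3, 8, 2 and 5. Leaving aside the single-cell-type references, 549 of the 1492 genes kept their call in every one of these settings that tested them. Settings that did not test a gene, such as the floor on the mean, were not counted for it. Bipolar changes numbered 1669, 3065 with log2(CPM + 1), 3273 with array weights and 825 to 1849 with 1 library left out, with 825, 1033 and 868 without replicate 2 or 1 at P7 or replicate 2 at P30. Cone changes numbered 1403, 888 with array weights, 3660 with plain read totals (81 higher), 835 with the floor on the mean and 362 to 2017 with 1 library left out, with 362, 808 and 859 without replicate 1 or 2 at P7 or replicate 1 at P30. Rod changes stayed within 1.5 times of 2660 in each setting run. The array quality weights were equal for both libraries of each group, from 0.367 for cones at P30 to 4.49 for bipolars at P7 among the groups compared. They therefore weight groups and do not tell the libraries of a group apart. The cause of these shifts was not tested. Same-numbered libraries share only a number: the correlation of their deviations was -0.13 to 0.16 over 15 pairs of groups, with 1 over 0.1, and a replicate block gave 1513 interaction calls. Of 131 named genes 129 kept their call in the block, 121 with limma-voom and 82 to 99 without 1 bipolar library. Alcam, Cdh9, Cnpy1, Crp, Hmgn2, Pde6b, Tet1 and mt-Nd5 were called in 9 to 12 of their 22 or 23 settings. Count models in edgeR and DESeq2 were planned and not run, since the deposited unit is log2. The depth of the bipolar libraries, 14.4 to 29.96 megareads, and 2 libraries per group limit calls for genes near 1 CPM.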
